A study of Rattus norvegicus with 16 samples.

Results

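RNA of 38 genes of glycolysis, the pentose phosphate pathway and central carbon metabolism was examined among the 31038 genes measured in rat sciatic nerve after crush. The genes were taken by name from a list that covers the entry of glucose into the cell (4 genes), upper glycolysis (7), lower glycolysis (5), lactate (4), pyruvate dehydrogenase and its kinases (5), the pentose phosphate pathway (3), the galactose and polyol pathways (4) and the tricarboxylic acid cycle (6). All 38 passed the filter on low counts in every fit. There were 16 libraries, 2 in each of 8 groups. The groups were purified Schwann cells and whole nerve, each taken without injury (uncrushed) or at 3, 5 or 7 days from sciatic crush, performed on rats aged 18 days. The labels give that age for all 16 libraries, uncrushed ones included. Crushed nerves were taken 3, 5 or 7 days after the operation, and whether uncrushed rats had the same age at collection is not given. Effects of crush and of age can therefore not be told apart. Crushed groups hold only nerve distal to the crush and uncrushed groups the matching segment, and since naive nerves had no sham operation, effects of crush and of surgery with its anesthesia and analgesia cannot be told apart. Each sample of either kind was pooled from at least 10 nerves. Schwann cells were dissociated and immunopanned, with CD45 and Thy1 used to remove other cells and O4 to select them, whereas whole nerve RNA came from undissociated tissue, so that an effect of the purification and a difference between the cells cannot be told apart. The paper also reports a larger yield of cells per nerve after crush than before. The part of this in changes within Schwann cells was not tested.

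Glycolysis turns glucose into pyruvate in the cytosol and yields ATP and NADH, and several of its steps are served by paralogous enzymes whose mixture differs between tissues. Pyruvate is either reduced to lactate or burned in mitochondria after passing pyruvate dehydrogenase, which its 4 kinases switch off. The pentose phosphate pathway supplies NADPH and ribose, and the polyol pathway converts glucose to sorbitol and fructose. In peripheral nerve, Schwann cells are thought to hand lactate to axons through monocarboxylate transporters, and sorbitol made by aldose reductase has long been studied in diabetic neuropathy.

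Levels below are in scaled FPKM, which is the deposited FPKM (fragments scaled to transcript length and library size) divided by the TMM factor of the library. Changes are log2 fold changes of counts from edgeR's quasi-likelihood test, and a gene was called where its Benjamini-Hochberg adjusted p over all genes was below 0.05. Whether the pools of a group were made on separate days or from separate litters is not given in the sources used here, so p-values measure only the spread between these pooled samples, which may be technical. With 2 libraries in a group an exact permutation test of a single gene cannot go below a two-sided p of 0.333, and the calls therefore rest on the spread shared across genes. In bulk RNA, fewer cells of a type and less RNA per cell cannot be told apart.

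Depth lay between 10555067 and 27562637 expected counts per library. The summed level of 9 Schwann cell markers was 8918 to 9421 scaled FPKM in uncrushed Schwann cells and 4233 to 6580 after crush, and 22086 to 26293 before and 2297 to 4675 after crush in whole nerve. Its members did not all follow the sum, and Ngfr in Schwann cells was 38.1 to 52.1 before and 529 to 1121 after crush. Macrophage markers summed to 164 to 183 in uncrushed and 344 to 579 in crushed whole nerve, against 2.55 to 13.3 in Schwann cells. Of 6 fibroblast markers in Schwann cells, which summed to 1308 to 1332 before and 184 to 329 after crush, Col3a1 (988 to 1016 before and 20.1 to 119 after) and Col1a1 (291 to 298 before and 138 to 228 after) carried the sum, while Dcn, Lum, Pdgfra and Fn1 overlapped between crushed and uncrushed libraries. Of 3 pericyte markers, which summed to 34.4 to 45.2 before and 6.69 to 16.2 after crush there, Pdgfrb was 29.2 to 32.5 before and 3.03 to 11.9 after, and Rgs5 and Acta2 overlapped. The part of these shifts in the results below was not tested. Replicate 2 of uncrushed whole nerve held 812 scaled FPKM of muscle markers against 40.8 in replicate 1 and at most 78.8 in any other library, and values without it are given beside the counts of members called higher and lower in each comparison with uncrushed whole nerve, and beside members' changes against uncrushed whose call it ended. The TMM factors of uncrushed whole nerve were 0.82 and 0.821, against 0.994 to 1.07 in the other libraries. Scaling to library totals instead, an alternative chosen after seeing the data, moved the median of all genes in whole nerve after crush to 0.41, 0.39 and 0.42 at days 3, 5 and 7 (0.00, -0.01 and 0.02 with TMM), so changes in whole nerve are relative to the typical gene.

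In Schwann cells more of the 38 genes rose than fell after crush. At day 3, 23 were higher and 7 lower, beside 26.9% and 25.7% of all genes tested. At day 5, 22 were higher and 7 lower (background 29% and 25.6%), and at day 7, 21 were higher and 7 lower (background 25% and 21.9%). The median log2 fold change of the 38 was 0.54, 0.56 and 0.53 at the 3 days, against 0.00, 0.06 and 0.06 over all genes. A set of 19 members was higher on all 3 days (background 18.6%), and 5 were lower on all 3 days, namely Hk2, Pfkm, Aldoc, Slc16a1 and Pdha1 (background 16.3%). Slc2a3, Pfkp, Eno2 and Slc16a3 were called on no day (background 32.1%). On library totals, Ldha (0.27) and Mdh1 (0.21) at day 3, Tkt (-0.28) at day 5 and Slc2a1 (-0.44) at day 7 lost their calls in Schwann cells.

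In whole nerve, 15 members were higher and 10 lower at day 3 (background 23.1% and 22.5%), 7 higher and 10 lower at day 5 (background 18.9% and 19.5%), and 3 higher and 12 lower at day 7 (background 15.4% and 15.9%). On library totals these splits became 23 and 5 (background on that scale 44.3% and 11.6%), 22 and 5 (43.6% and 10.1%), and 19 and 4 (43.1% and 7.16%). The median log2 fold change of the members was 0.17, 0.05 and -0.08, against 0.00, -0.01 and 0.02 over all genes. Without the uncrushed replicate rich in muscle RNA, 13 were higher and 8 lower at day 3 (background 18.2% and 18.1%), 5 and 10 at day 5 (14.1% and 14.5%), and 2 and 10 at day 7 (11.6% and 12.2%). Pgk1, Pgam1 and Pdk3 were higher on all 3 days (background 10.8%). Lower on all 3 (background 11.3%) were Slc2a1, Pfkm, Aldoc, Eno2, Ldhb, Slc16a1, Tkt and Akr1b1, of which Pfkm, Aldoc, Eno2 and Akr1b1 stayed lower on all 3 on library totals. A further 9 members were called on no day (background 44.1%).

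**Figure D1:**
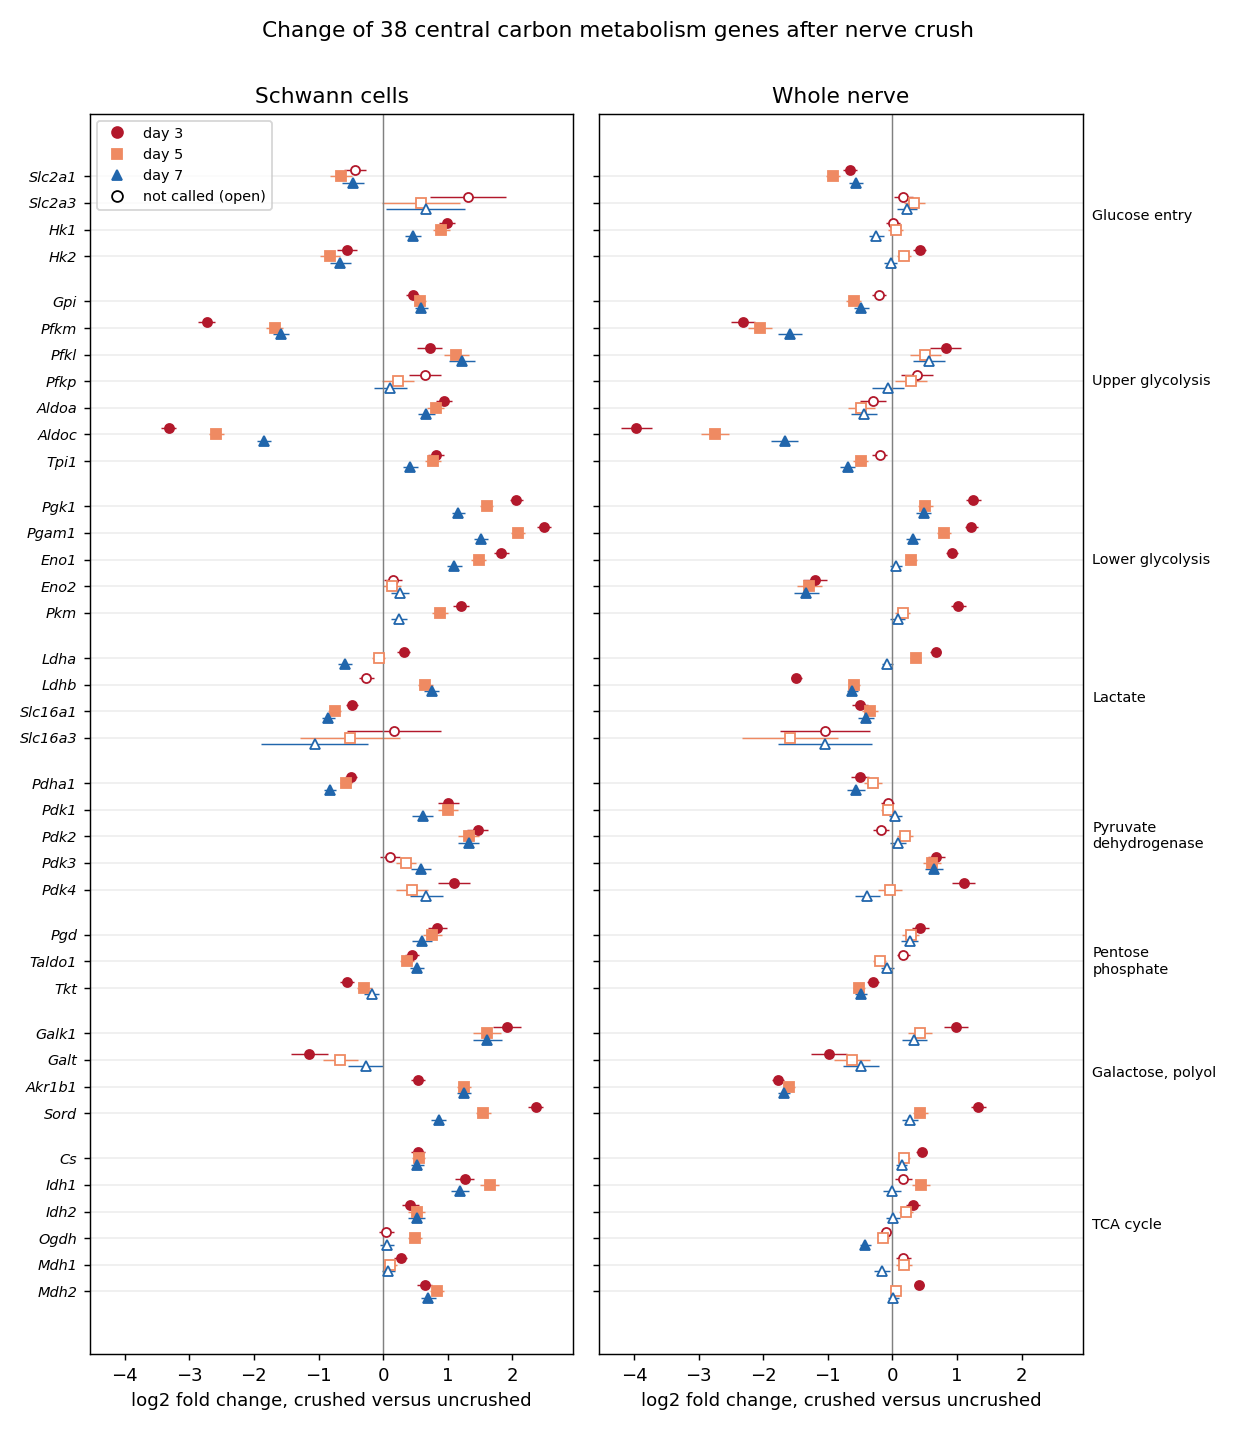
Log2 fold change of each of the 38 genes against uncrushed samples of the same tissue at days 3, 5 and 7, in Schwann cells and in whole nerve, ordered by role; genes called at an adjusted p below 0.05 are marked. Pgam1, Sord and Pgk1 rose most and Aldoc and Pfkm fell most in Schwann cells at day 3, and Akr1b1 had opposite signs in the 2 tissues.

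The 2 members with the largest rises and the 2 with the largest falls in Schwann cells at day 3, among those with a promoter window in RefSeq, are Pgam1, Sord, Aldoc and Pfkm. Their sequence is shown because these genes mark both ends of the response. Each run is the 250 bases before the start of the gene in the rat assembly GRCr8, 5′ to 3′ on the strand of the gene, in lower case with ACGTG on either strand in capitals. The windows lie at chr1:250672902-250673151 (+ strand, Pgam1), chr3:129638418-129638667 (+ strand, Sord), chr10:63715294-63715543 (+ strand, Aldoc) and chr7:131113849-131114098 (+ strand, Pfkm). ACGTG is the core of the sites that hypoxia-inducible factors bind and also lies inside the E-box CACGTG.
Pgam1: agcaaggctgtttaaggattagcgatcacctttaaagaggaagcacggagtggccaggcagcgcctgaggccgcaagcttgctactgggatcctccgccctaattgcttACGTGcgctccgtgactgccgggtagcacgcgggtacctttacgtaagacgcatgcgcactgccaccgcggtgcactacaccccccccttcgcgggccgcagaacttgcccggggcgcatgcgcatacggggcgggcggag
Sord: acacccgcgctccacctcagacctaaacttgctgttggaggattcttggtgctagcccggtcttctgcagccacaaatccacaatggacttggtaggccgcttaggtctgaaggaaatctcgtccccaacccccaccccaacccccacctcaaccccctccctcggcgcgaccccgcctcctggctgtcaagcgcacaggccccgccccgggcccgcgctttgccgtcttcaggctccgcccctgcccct
Aldoc: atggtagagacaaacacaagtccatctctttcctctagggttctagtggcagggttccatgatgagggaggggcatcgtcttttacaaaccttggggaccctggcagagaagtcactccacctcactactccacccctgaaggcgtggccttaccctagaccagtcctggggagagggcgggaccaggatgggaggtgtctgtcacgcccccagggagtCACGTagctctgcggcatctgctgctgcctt
Pfkm: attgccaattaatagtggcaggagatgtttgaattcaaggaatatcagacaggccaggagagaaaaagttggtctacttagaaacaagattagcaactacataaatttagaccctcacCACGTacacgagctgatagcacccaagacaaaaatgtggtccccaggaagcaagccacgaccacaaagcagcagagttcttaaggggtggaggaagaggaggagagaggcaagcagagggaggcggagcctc
ACGTG was found in 14 of the 39 windows of members (35.9%) and in 16.6% of the 33469 windows of all genes, and CACGTG in 6 (15.4%) and in 5.59%. Windows were found for 35 members. Of the 4 printed windows that of Sord holds no match and the other 3 hold 1 each. The 6 genes with CACGTG are among the 14 with ACGTG, since CACGTG contains it, so the 2 shares are not separate results. The windows of all genes were not matched to those of members on base composition. A match describes these letters and is not a site.

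At the entry of glucose, Hk1 rose and Hk2 fell in Schwann cells. Hexokinases phosphorylate glucose and so trap it in the cell, Hk1 being the widely expressed form and Hk2 the inducible one. Hk1 in Schwann cells was 7.35 and 8.32 before crush, 15.5 and 14.9 on day 3, 13.9 and 14.9 on day 5, then 11.6 and 9.58 on day 7. The log2 fold change reached 0.99 (SE 0.127) at day 3, 0.90 (SE 0.128) at day 5 and 0.46 (SE 0.129) on day 7, with adjusted p = 0.000141, 0.000278 and 0.0155. Every crushed library lay above both uncrushed ones. Hk2 in Schwann cells was 10.3 and 10 before crush, 6.05 and 7.46 on day 3, 5.3 and 6.05 on day 5, then 7.27 and 5.38 on day 7. It fell by 0.56, 0.82 and 0.66 on the log2 scale at the 3 days (SE 0.157, 0.159 and 0.158, adjusted p = 0.0141, 0.00186 and 0.00721), with no overlap between crushed and uncrushed libraries. As a share of the summed FPKM of Hk1 and Hk2, Hk2 made up 58.4% and 54.7% before crush, 28% and 33.4% on day 3, 27.6% and 28.9% on day 5, then 38.5% and 36% on day 7.

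In whole nerve Hk2 was higher at day 3. Its level was 6.9 and 6.53 before crush, 8.9 and 9.97 on day 3, 7.8 and 8.47 on day 5, then 6.71 and 7.31 on day 7, a log2 fold change of 0.42 (SE 0.104, adjusted p = 0.00715) at day 3, and its share of the pair stayed between 40.6% and 49%. Hk1 ranged from 8.34 to 10.8 over the 8 whole nerve libraries and was called on no day. Slc2a1, the glucose transporter GLUT1 that is also prominent in perineurial cells, was 47.1 and 57.9 before crush, 35.4 and 34.3 on day 3, 29.5 and 30 on day 5, then 39.4 and 36.1 on day 7 in whole nerve. Its log2 fold change there was -0.66 (SE 0.108) at day 3, -0.92 (SE 0.109) at day 5 and -0.57 (SE 0.109) on day 7, with adjusted p = 0.000646, 9.46e-05 and 0.00269, and both uncrushed libraries lay above all 6 crushed ones. In Schwann cells Slc2a1 was 19.2 and 19.2 before crush, 11.3 and 16.5 on day 3, 11.4 and 12.7 on day 5, then 14.6 and 12.6 on day 7, with log2 changes of -0.43, -0.65 and -0.47 (adjusted p = 0.0576, 0.00948 and 0.0448). Of 4 perineurial markers in those libraries, Itgb4 was 95.4 to 95.5 before and 42.3 to 48.8 after crush, Cldn1 was 0.637 to 0.781 and 0.264 to 1.36, and Msln and Lypd2 were at or near 0; their part in this result was not tested. Slc2a3, the transporter GLUT3, ranged from 0.11 to 0.865 in Schwann cells and from 3.64 to 5.7 in whole nerve and was called on no day in either. Leaving out 1 library in Schwann cells ended the call of Hk2 at day 3 (-0.44, adjusted p = 0.0953, without day 3 replicate 1), Slc2a1 at day 5 (-0.57, adjusted p = 0.0688, without day 5 replicate 1), Slc2a1 at day 7 (-0.57 to -0.37, adjusted p = 0.0638 to 0.21, without any 1 of uncrushed replicate 1, uncrushed replicate 2, day 5 replicate 1, day 5 replicate 2, day 7 replicate 1 and day 7 replicate 2), Hk1 at day 7 (0.32 to 0.37, adjusted p = 0.0782 to 0.118, without uncrushed replicate 1 or day 7 replicate 1) and Hk2 at day 7 (-0.46, adjusted p = 0.0571, without day 7 replicate 2). In whole nerve, leaving out 1 library ended the call of Hk2 at day 3 (0.35, adjusted p = 0.071, without day 3 replicate 2). Scaled to library totals, Slc2a1 at day 3 (-0.25) and Slc2a1 at day 7 (-0.16) lost their calls in whole nerve. Hk1 (days 3 and 5), Hk2 (days 5 and 7) and Slc2a3 (days 3, 5 and 7) were called higher there on that scale and not with TMM.

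In upper glycolysis the largest falls of the whole set stood beside rises of paralogues of the same enzymes. Aldoc encodes aldolase C, the isoform best known from brain, and Pfkm the muscle-type subunit of phosphofructokinase, the committed step of glycolysis. In Schwann cells Aldoc was 76.4 and 78.5 before crush, 7.31 and 7.84 on day 3, 12.7 and 12.9 on day 5, then 22.9 and 19.9 on day 7. This gave log2 fold changes of -3.32 (SE 0.119) at day 3, -2.58 (SE 0.114) at day 5 and -1.84 (SE 0.111) on day 7, with adjusted p = 5.88e-08, 2.02e-07 and 1.79e-06. The level was lowest at day 3, and all 6 crushed libraries lay below the uncrushed ones. Pfkm in Schwann cells was 27.4 and 29.8 before crush, 4.25 and 4.17 on day 3, 8.45 and 9.13 on day 5, then 10.3 and 8.42 on day 7. Here the log2 fold change was -2.73 (SE 0.134) at day 3, -1.68 (SE 0.127) at day 5 and -1.58 (SE 0.127) on day 7, with adjusted p = 2.65e-07, 4.6e-06 and 9.79e-06, again with the lowest values at day 3.

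The same enzymes fell in whole nerve. Aldoc was 40.2 and 46.5 before crush, 2.42 and 3.36 on day 3, 5.76 and 8.16 on day 5, then 12.4 and 16.8 on day 7, which gave log2 changes of -3.96, -2.74 and -1.67 (adjusted p = 4.66e-07, 5.56e-06 and 0.000175). Pfkm was 19.2 and 25.8 before crush, 5.09 and 4.43 on day 3, 5.89 and 5.79 on day 5, then 9.34 and 6.73 on day 7, with log2 changes of -2.31, -2.05 and -1.58 (adjusted p = 4.72e-06, 1.47e-05 and 0.000108). Crushed and uncrushed libraries did not overlap for either gene. Without the uncrushed replicate rich in muscle RNA, the values were -3.85, -2.62 and -1.55 for Aldoc and -2.08, -1.82 and -1.35 for Pfkm. Between day 3 and day 7 Aldoc and Pfkm rose by 1.48 (adjusted p = 4.53e-05) and 1.15 (adjusted p = 0.00036) in Schwann cells and by 2.30 (adjusted p = 0.000108) for Aldoc in whole nerve, and at day 7 both were below uncrushed.

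Among the paralogues in Schwann cells, Aldoa and Pfkl rose and Pfkp was called on no day. Aldoa, the widely expressed aldolase, was 64.6 and 71.4 before crush, 121 and 136 on day 3, 106 and 131 on day 5, then 114 and 101 on day 7, which gave log2 changes of 0.94, 0.81 and 0.67 (adjusted p = 0.000192, 0.000534 and 0.00211). Aldoc, which made up 54.2% and 52.4% of the 2 aldolases in uncrushed Schwann cells, made up 5.67% and 5.47% on day 3 and 16.8% and 16.5% at day 7. Pfkl, the liver-type subunit, was 1.49 and 1.43 before crush, 2.63 and 2.12 on day 3, 3.23 and 3.07 on day 5, then 3.41 and 3.39 on day 7, and rose by 0.72, 1.13 and 1.22 (adjusted p = 0.0118, 0.00095 and 0.000749). The share of Pfkm among Pfkm, Pfkl and Pfkp was 89.1% and 90.1% before crush, 42.7% and 46.6% on day 3, 60.9% and 63.8% on day 5, then 64% and 63.3% on day 7. Pfkp, the platelet-type subunit, ranged from 1.49 to 3.07. The rise of Pfkl was small beside the fall of Pfkm, with means of 1.46 and 28.6 before crush and 2.38 and 4.21 on day 3. The summed level of these 3 genes was therefore lower at day 3 than before crush.

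**Figure D2:**
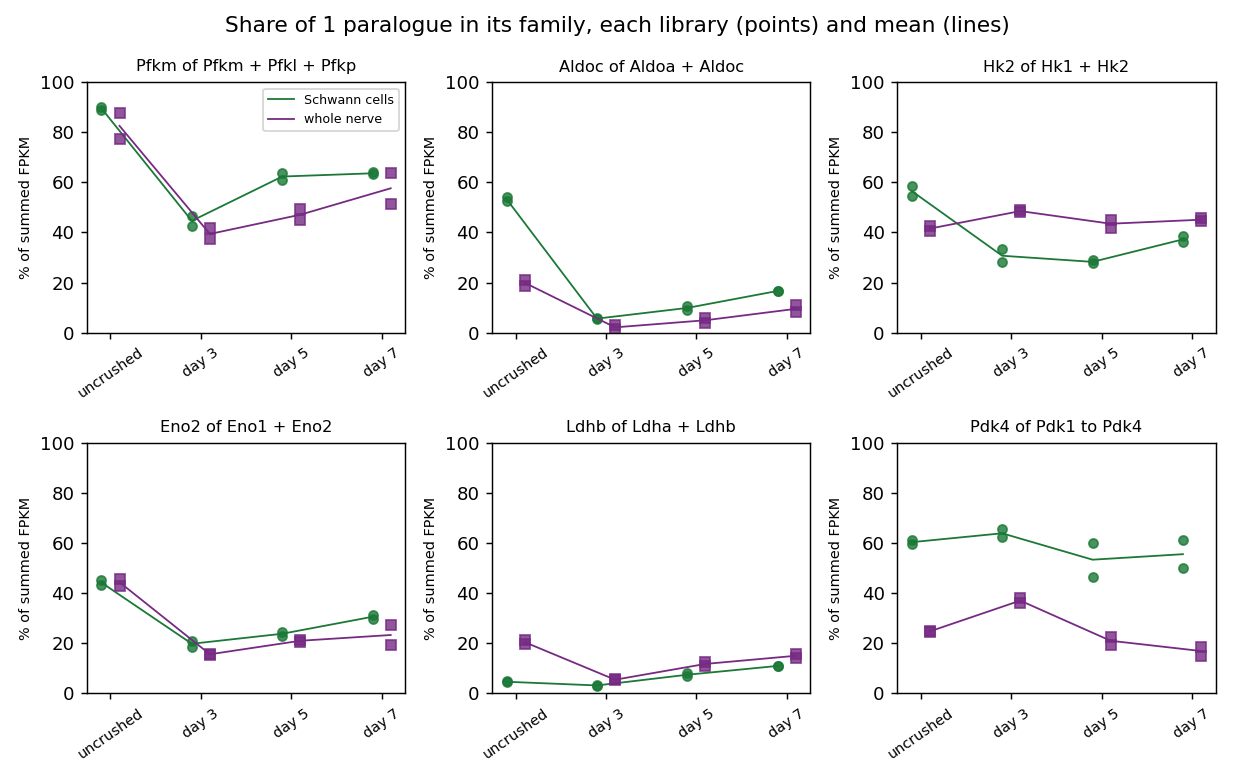
Share in percent of 1 paralogue in the summed FPKM of its family, in each library (points) and as the mean of 2 libraries (lines), for Schwann cells and whole nerve over uncrushed samples and days 3, 5 and 7. The share of Pfkm and of Aldoc is lowest at day 3 in both tissues, and that of Hk2 falls in Schwann cells from 58.4% and 54.7% to 28% and 33.4% at day 3.

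Gpi and Tpi1, which interconvert the hexose phosphates and the triose phosphates, moved in opposite directions in the 2 tissues at days 5 and 7. Gpi in Schwann cells was 19.7 and 21 before crush, 27 and 28 on day 3, 28.9 and 30.7 on day 5, then 30.1 and 30.5 on day 7, which gave log2 changes of 0.46, 0.57 and 0.59 (adjusted p = 0.00337, 0.00105 and 0.00103). In whole nerve it was 43 and 51 before crush, 44.8 and 40.6 on day 3, 35.1 and 31.5 on day 5, then 33.5 and 38.5 on day 7, with log2 changes of -0.21, -0.60 and -0.48 (adjusted p = 0.171, 0.00241 and 0.0104). It thus rose in Schwann cells on all 3 days and fell in whole nerve at days 5 and 7. Tpi1 in Schwann cells was 53.5 and 46.2 before crush, 82.1 and 90.5 on day 3, 82.7 and 86.2 on day 5, then 71.9 and 60.3 on day 7, with log2 changes of 0.82, 0.77 and 0.42 (adjusted p = 0.000308, 0.00046 and 0.0157). In whole nerve it was 115 and 118 before crush, 111 and 102 on day 3, 93.4 and 85.3 on day 5, then 86.2 and 67.8 on day 7, with log2 changes of -0.20, -0.49 and -0.69 (adjusted p = 0.188, 0.00715 and 0.00118). Aldoa in whole nerve ranged from 149 to 204 before and 113 to 186 after crush and was called on no day. With library totals as the scale, Gpi at day 5 (-0.20), Tpi1 at day 5 (-0.09), Gpi at day 7 (-0.07) and Tpi1 at day 7 (-0.29) lost their calls in whole nerve. Pfkl (days 5 and 7) and Pfkp (days 3 and 5) were called higher there on that scale and not with TMM. Counts of Tpi1 were shared with other loci in 16 libraries, and 5 and 9 further records carry related names for Tpi1 and Aldoa. The difference between the tissues stayed called on library totals for Gpi (0.79 and 0.70) and for Tpi1 (0.88 and 0.74) at days 5 and 7, whereas that of Gpi at day 3, called with TMM (0.57), was 0.21 (adjusted p = 0.343) on that scale. Calls in Schwann cells that ended without 1 library were those of Pfkl at day 3 (0.55 to 0.68, adjusted p = 0.0507 to 0.0988, without uncrushed replicate 2 or day 3 replicate 1) and Tpi1 at day 7 (0.30, adjusted p = 0.0931 to 0.123, without uncrushed replicate 2 or day 7 replicate 1). Leaving out 1 library in whole nerve ended the call of Pfkl at day 3 (0.66 to 0.69, adjusted p = 0.0883 to 0.117, without uncrushed replicate 2 or day 3 replicate 2), Tpi1 at day 5 (-0.43, adjusted p = 0.0648, without day 5 replicate 2) and Gpi at day 7 (-0.35 to -0.34, adjusted p = 0.0811 to 0.0979, without uncrushed replicate 2 or day 7 replicate 1).

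Lower glycolysis, the part of the pathway that yields ATP and ends in pyruvate, held 2 of the 3 largest rises in Schwann cells at day 3. Pgam1, phosphoglycerate mutase, was 51.7 and 56.3 before crush, 303 and 291 on day 3, 218 and 234 on day 5, then 164 and 140 on day 7 in Schwann cells. These levels correspond to log2 fold changes of 2.49 (SE 0.111) at day 3, 2.08 (SE 0.11) at day 5 and 1.51 (SE 0.108) on day 7, with adjusted p = 1.57e-07, 5.17e-07 and 5.05e-06. Pgk1, phosphoglycerate kinase, was 43.6 and 39.2 before crush, 168 and 171 on day 3, 119 and 130 on day 5, then 95 and 88 on day 7, giving log2 fold changes of 2.06 (SE 0.102) at day 3, 1.60 (SE 0.101) at day 5 and 1.16 (SE 0.1) on day 7, with adjusted p = 2.75e-07, 1.42e-06 and 1.52e-05. For both genes the highest values were at day 3 and every crushed library exceeded the uncrushed ones. In whole nerve Pgam1 was 122 and 103 before crush, 271 and 282 on day 3, 217 and 205 on day 5, then 162 and 140 on day 7, with log2 changes of 1.22, 0.80 and 0.32 (adjusted p = 7.11e-06, 0.000203 and 0.0396). Pgk1 there was 60.5 and 63.5 before crush, 149 and 161 on day 3, 95.4 and 94.1 on day 5, then 104 and 81.4 on day 7, with log2 changes of 1.25, 0.51 and 0.48 (adjusted p = 1.19e-05, 0.00633 and 0.00984). Whole nerve had more Pgam1 before crush, and after it no difference between the tissues was called.

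Eno1, the widely expressed enolase, ranged from 14.3 to 15.5 in uncrushed and 30.9 to 53 in crushed Schwann cells, which gave log2 changes of 1.83, 1.48 and 1.10 (adjusted p = 1.31e-06, 5.98e-06 and 5.67e-05), and in whole nerve it rose at days 3 and 5 (0.92, 0.29 and 0.05, adjusted p = 1.6e-05, 0.026 and 0.728). Eno2, the neuronal enolase, ranged from 11.3 to 14.6 in Schwann cells and was called on no day there, while in whole nerve it was 22.8 to 26.7 before and 8.03 to 13 after crush, with log2 changes of -1.20, -1.29 and -1.33 (adjusted p = 0.000511, 0.000435 and 0.000496). Its share of the 2 enolases in Schwann cells was 43.1% and 45.4% before crush, 21% and 18.6% on day 3, 23% and 24.6% on day 5, then 31.4% and 29.8% on day 7. Pkm, pyruvate kinase, ranged from 23.3 to 27.2 in uncrushed Schwann cells, and changed by 1.21, 0.88 and 0.25 (adjusted p = 3.32e-05, 0.00028 and 0.135) there and by 1.02, 0.16 and 0.08 (adjusted p = 5.03e-05, 0.307 and 0.624) in whole nerve. Eno1, Eno2 and Pkm had counts that were not whole numbers in 15, 16 and 16 libraries, so reads were shared with other loci, and 34, 20, 13 and 9 further records carry related names for Eno1, Pkm, Pgam1 and Pgk1; their levels are uncertain to that extent. In whole nerve, leaving out 1 library ended the call of Eno1 at day 5 (0.27 to 0.33, adjusted p = 0.059 to 0.112, without any 1 of uncrushed replicate 1, uncrushed replicate 2, day 5 replicate 1 and day 5 replicate 2), Pgk1 at day 7 (0.45, adjusted p = 0.0555, without uncrushed replicate 1) and Pgam1 at day 7 (0.21 to 0.33, adjusted p = 0.0581 to 0.225, without any 1 of uncrushed replicate 2, day 3 replicate 1, day 3 replicate 2, day 5 replicate 1, day 5 replicate 2 and day 7 replicate 1). Under scaling by library totals, whole nerve gained calls as higher for Eno1 (day 7) and Pkm (days 5 and 7).

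**Figure D3:**
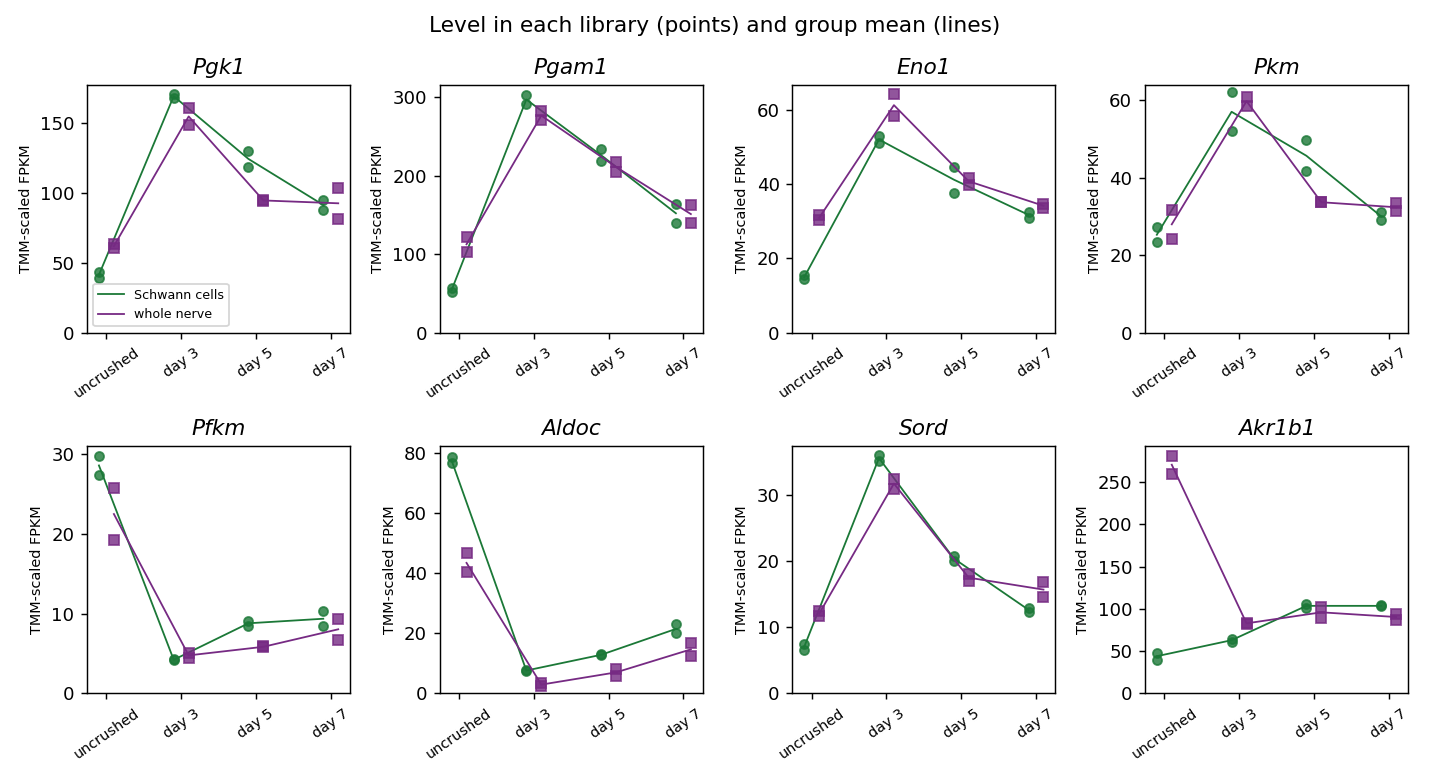
Level in scaled FPKM of selected genes in each library (points) with the mean of the 2 libraries (lines), for Schwann cells and whole nerve over uncrushed samples and days 3, 5 and 7. Pgam1 peaks at day 3 in both tissues (303 and 291 in Schwann cells), Aldoc is lowest there, and Akr1b1 rises in Schwann cells to 103 and 104 at day 7 while it falls in whole nerve from 260 and 281.

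The lactate genes did not move together. Ldha encodes the lactate dehydrogenase subunit that favours lactate formation and had the highest level in scaled FPKM of the 38 genes in uncrushed Schwann cells. In Schwann cells Ldha was 1096 and 1028 before crush, 1298 and 1318 on day 3, 1071 and 937 on day 5, then 725 and 675 on day 7. Fitted log2 fold changes were 0.32 (SE 0.101) at day 3, -0.07 (SE 0.101) at day 5 and -0.59 (SE 0.102) on day 7, with adjusted p = 0.0224, 0.581 and 0.00115, so that it was higher at day 3 and lower at day 7. The day 3 call was lost with upper quartile normalization (0.24, adjusted p = 0.0799) and with at least 10 counts in every library (0.27, adjusted p = 0.0517). In whole nerve Ldha was 592 and 624 before crush, 993 and 1034 on day 3, 823 and 859 on day 5, then 645 and 587 on day 7, with log2 changes of 0.67, 0.36 and -0.08 (adjusted p = 0.000125, 0.00785 and 0.51). Ldhb, the subunit that favours lactate oxidation, was 55.9 and 47.2 before crush, 44.7 and 40.2 on day 3, 77.7 and 82.7 on day 5, then 90.6 and 81.6 on day 7 in Schwann cells, with log2 changes of -0.26, 0.65 and 0.75 (adjusted p = 0.087, 0.00107 and 0.00055). In whole nerve it was 159 and 153 before crush, 59 and 57.4 on day 3, 117 and 107 on day 5, then 106 and 111 on day 7, with log2 changes of -1.49, -0.59 and -0.62 (adjusted p = 3.39e-07, 0.000333 and 0.000286). Ldhb thus rose in Schwann cells and fell in whole nerve at days 5 and 7. The share of Ldhb in the 2 subunits in whole nerve was 21.2% and 19.7% before crush, 5.61% and 5.26% on day 3, 12.4% and 11.1% on day 5, then 14.1% and 15.9% on day 7.

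Slc16a1, the monocarboxylate transporter MCT1, was 44.6 and 44.4 before crush, 31.6 and 31 on day 3, 26 and 26.2 on day 5, then 26.1 and 22.6 on day 7 in Schwann cells. In the fit the changes were -0.48 (SE 0.0968) at day 3, -0.75 (SE 0.0974) at day 5 and -0.85 (SE 0.0979) on day 7, with adjusted p = 0.00246, 0.000154 and 9.61e-05, and the crushed libraries lay below the uncrushed ones. In whole nerve it was 77.4 and 92.3 before crush, 60.8 and 64.6 on day 3, 70.4 and 72.3 on day 5, then 76.2 and 60.6 on day 7, with log2 changes of -0.50, -0.35 and -0.41 (adjusted p = 0.00721, 0.0457 and 0.031), values that turned to 0.05 at day 5 and 0.00 at day 7 on library totals (adjusted p = 0.742 and 0.998). Slc16a3, the exporter MCT4, ranged from 0.0569 to 0.322 in Schwann cells and 0.129 to 0.718 in whole nerve and was called on no day. Ldha counts were shared with other loci in 16 libraries, and 31 further records carry a related name. Calls in Schwann cells that ended without 1 library were those of Ldha at day 3 (0.25 to 0.32, adjusted p = 0.0918 to 0.108, without any 1 of uncrushed replicate 2, day 3 replicate 1 and day 3 replicate 2). Leaving out 1 library in whole nerve ended the call of Slc16a1 at day 3 (-0.44 to -0.37, adjusted p = 0.0603 to 0.0638, without uncrushed replicate 2 or day 3 replicate 1), Ldha at day 5 (0.33, adjusted p = 0.058, without day 5 replicate 2), Slc16a1 at day 5 (-0.37 to -0.21, adjusted p = 0.0719 to 0.281, without any 1 of uncrushed replicate 2, day 3 replicate 1, day 3 replicate 2, day 5 replicate 1 and day 5 replicate 2) and Slc16a1 at day 7 (-0.40 to -0.24, adjusted p = 0.0513 to 0.196, without any 1 of uncrushed replicate 2, day 3 replicate 1, day 3 replicate 2, day 5 replicate 1, day 5 replicate 2 and day 7 replicate 2). When library totals set the scale, Slc16a1 at day 3 (-0.09), Ldhb at day 5 (-0.18), Slc16a1 at day 5 (0.05), Ldhb at day 7 (-0.22) and Slc16a1 at day 7 (0.00) lost their calls in whole nerve. Ldha (day 7) was called higher there on that scale and not with TMM.

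Pyruvate dehydrogenase carries pyruvate into the mitochondrial cycle, and its kinases inhibit it. Pdha1, the catalytic subunit, ranged from 113 to 120 in uncrushed and 63.4 to 83 in crushed Schwann cells. It fell on all 3 days, with log2 changes of -0.50, -0.57 and -0.82 (adjusted p = 0.00161, 0.000771 and 0.000105), and in whole nerve it changed by -0.50, -0.30 and -0.56 (adjusted p = 0.0133, 0.111 and 0.0106). Pdk2 in Schwann cells was 4.94 and 6.03 before crush, 14.9 and 14.6 on day 3, 14.8 and 12.1 on day 5, then 12.6 and 14.5 on day 7. The log2 fold change of Pdk2 was 1.46 (SE 0.16) at day 3, 1.32 (SE 0.16) at day 5 and 1.32 (SE 0.161) on day 7, with adjusted p = 4.88e-05, 0.000102 and 0.000141, and every crushed library was at least as high as 12.1 against at most 6.03 before. In whole nerve Pdk2 was 10.2 and 10.5 before crush, 9.72 and 9.43 on day 3, 13.4 and 12.2 on day 5, then 11.1 and 12.2 on day 7 and was called on no day.

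Pdk4, the kinase induced by fasting and fatty acids, was 24.5 and 24.6 before crush, 47.6 and 54.8 on day 3, 26.3 and 40.1 on day 5, then 28.9 and 48.7 on day 7 in Schwann cells. It was higher at day 3, with 1.09 (SE 0.247, adjusted p = 0.00458), and was not called at day 5 or 7 (0.45 and 0.67, adjusted p = 0.154 and 0.0505), where its 2 libraries were far apart. In whole nerve Pdk4 was 9.28 and 9.89 before crush, 23.1 and 19.9 on day 3, 11.2 and 8.78 on day 5, then 6.68 and 8.89 on day 7, with log2 changes of 1.10, -0.04 and -0.39 (adjusted p = 0.000667, 0.876 and 0.152). Pdk4 made up 46.6% to 65.6% of the summed FPKM of the 4 kinases in Schwann cells and 15.1% to 37.9% in whole nerve. Pdk3 in whole nerve was 7.61 and 7.76 before crush, 14.1 and 11.8 on day 3, 12 and 13.2 on day 5, then 13.2 and 12.4 on day 7, with log2 changes of 0.68, 0.61 and 0.64 (adjusted p = 0.00215, 0.00549 and 0.00524), and in Schwann cells it was called at day 7 only (0.10, 0.35 and 0.58). Pdk1 ranged from 2.25 to 2.39 in uncrushed and 3.56 to 5.32 in crushed Schwann cells, with log2 changes of 1.01, 1.00 and 0.61 (adjusted p = 0.000474, 0.000528 and 0.0107). In whole nerve its counts gave -0.07, -0.07 and 0.04 beside a scaled FPKM of 10.8 to 11.4 before and 10.7 to 14.1 after crush. The transcript length assigned to Pdk1 differed 1.32 times between libraries. In Schwann cells, leaving out 1 library ended the call of Pdk1 at day 7 (0.46, adjusted p = 0.0862, without day 7 replicate 1) and Pdk3 at day 7 (0.37 to 0.50, adjusted p = 0.0696 to 0.0888, without uncrushed replicate 2 or day 7 replicate 2). Calls in whole nerve that ended without 1 library were those of Pdha1 at day 3 (-0.40 to -0.28, adjusted p = 0.114 to 0.13, without uncrushed replicate 1 or day 3 replicate 2) and Pdha1 at day 7 (-0.44 to -0.35, adjusted p = 0.0773 to 0.0914, without uncrushed replicate 1 or day 7 replicate 2). Scaled to library totals, Pdha1 at day 3 (-0.09) and Pdha1 at day 7 (-0.16) lost their calls in whole nerve. Pdk1 (days 3, 5 and 7) and Pdk2 (days 5 and 7) were called higher there on that scale and not with TMM. Counts of Pdha1 were shared with other loci in 14 libraries.

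In the pentose phosphate pathway Pgd and Taldo1 rose and Tkt fell in Schwann cells. Pgd, which makes NADPH in the oxidative branch, was 7.17 and 8.03 before crush, 13 and 13.6 on day 3, 11.2 and 14.3 on day 5, then 11.8 and 11 on day 7 in Schwann cells. The fitted changes were 0.84 (SE 0.148) at day 3, 0.76 (SE 0.148) at day 5 and 0.60 (SE 0.149) on day 7, with adjusted p = 0.00107, 0.00188 and 0.00867. Tkt, transketolase, was 43.5 and 42.8 before crush, 26.7 and 30.6 on day 3, 33.5 and 35.8 on day 5, then 40.1 and 35 on day 7, with log2 changes of -0.56, -0.29 and -0.18 (adjusted p = 0.00241, 0.0477 and 0.222). Taldo1, transaldolase, ranged from 63.1 to 63.3 in uncrushed and 77 to 97.2 in crushed Schwann cells, with log2 changes of 0.45, 0.37 and 0.52 (adjusted p = 0.00586, 0.0152 and 0.00296). The rises were called on all 3 days, and the fall of Tkt at days 3 and 5. In whole nerve Pgd was 13.4 and 12.2 before crush, 20.1 and 16.3 on day 3, 16.8 and 16.8 on day 5, then 17.4 and 15.6 on day 7, with log2 changes of 0.43, 0.28 and 0.27 (adjusted p = 0.0198, 0.116 and 0.156). Tkt there was 56.2 and 56.7 before crush, 49.4 and 47 on day 3, 46.2 and 38.6 on day 5, then 41.7 and 43.4 on day 7, with log2 changes of -0.30, -0.52 and -0.49 (adjusted p = 0.0279, 0.00186 and 0.00329), and on library totals its value at day 3 was 0.11 (adjusted p = 0.354). Taldo1 was called on no day in whole nerve. Leaving out 1 library in Schwann cells ended the call of Taldo1 at day 5 (0.31, adjusted p = 0.091, without day 5 replicate 2) and Tkt at day 5 (-0.33 to -0.24, adjusted p = 0.0504 to 0.216, without any 1 of 8 libraries). In whole nerve, leaving out 1 library ended the call of Pgd at day 3 (0.29 to 0.37, adjusted p = 0.0928 to 0.166, without uncrushed replicate 2 or day 3 replicate 1) and Tkt at day 3 (-0.32 to -0.26, adjusted p = 0.079 to 0.164, without any 1 of uncrushed replicate 1, uncrushed replicate 2, day 3 replicate 1 and day 3 replicate 2). With library totals as the scale, Tkt at day 3 (0.11), Tkt at day 5 (-0.12) and Tkt at day 7 (-0.09) lost their calls in whole nerve. Pgd (days 5 and 7) and Taldo1 (days 3 and 7) were called higher there on that scale and not with TMM.

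In the polyol pathway Akr1b1 rose in Schwann cells and fell in whole nerve, the widest difference in change between the tissues among the 38 genes. Akr1b1 encodes aldose reductase, which reduces glucose to sorbitol, and Sord the dehydrogenase that turns sorbitol into fructose. Akr1b1 in Schwann cells was 47.8 and 40 before crush, 64.6 and 61.1 on day 3, 101 and 106 on day 5, then 103 and 104 on day 7. The test gave log2 fold changes of 0.54 (SE 0.106) at day 3, 1.25 (SE 0.107) at day 5 and 1.25 (SE 0.107) on day 7, with adjusted p = 0.002, 1e-05 and 1.45e-05. In whole nerve Akr1b1 was 260 and 281 before crush, 83.5 and 82.1 on day 3, 102 and 89.7 on day 5, then 86.3 and 94.3 on day 7, log2 fold changes of -1.77 (SE 0.0954) at day 3, -1.60 (SE 0.095) at day 5 and -1.68 (SE 0.0956) on day 7, with adjusted p = 2.26e-07, 6.01e-07 and 8.22e-07. Crushed and uncrushed libraries did not overlap in either tissue. Set against whole nerve, Akr1b1 in Schwann cells was at -2.62 (log2) before crush and at -0.41, 0.11 and 0.19 at days 3, 5 and 7 (adjusted p = 0.00298, 0.381 and 0.138 after crush). On library totals the fall in whole nerve was -1.36, -1.20 and -1.27 and stayed called. Counts of Akr1b1 were shared with other loci in 16 libraries, and 5 further records carry a related name.

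Sord in Schwann cells was 6.56 and 7.44 before crush, 35.9 and 35.1 on day 3, 20.7 and 20 on day 5, then 12.9 and 12.3 on day 7. The log2 fold change of Sord was 2.36 (SE 0.117) at day 3, 1.55 (SE 0.117) at day 5 and 0.86 (SE 0.118) on day 7, with adjusted p = 2.76e-07, 4.6e-06 and 0.000305, with the peak at day 3. In whole nerve Sord was 12.4 and 11.6 before crush, 32.4 and 30.9 on day 3, 16.9 and 18 on day 5, then 16.8 and 14.5 on day 7, with log2 changes of 1.33, 0.43 and 0.27 (adjusted p = 6.65e-06, 0.014 and 0.106). Galk1, galactokinase, which starts galactose breakdown, was 2.42 and 3.64 before crush, 10.5 and 11.8 on day 3, 8.24 and 10.1 on day 5, then 9.24 and 8.96 on day 7 in Schwann cells, with log2 changes of 1.92, 1.61 and 1.61 (adjusted p = 6.25e-05, 0.000219 and 0.000304). In whole nerve Galk1 was 8.87 and 8.63 before crush, 19.2 and 17.1 on day 3, 14.9 and 10.5 on day 5, then 12.6 and 11.2 on day 7 and was called at day 3 (0.98, SE 0.184, adjusted p = 0.00148). Galt, the next enzyme of that route, moved the other way at day 3, with -1.14 (SE 0.281, adjusted p = 0.00712) in Schwann cells and -0.98 (SE 0.281, adjusted p = 0.0163) in whole nerve, and was called on no other day. Calls in whole nerve that ended without 1 library were those of Galt at day 3 (-0.99 to -0.65, adjusted p = 0.0695 to 0.165, without any 1 of uncrushed replicate 1, day 3 replicate 1 and day 3 replicate 2) and Sord at day 5 (0.37 to 0.38, adjusted p = 0.0783 to 0.0881, without uncrushed replicate 2 or day 5 replicate 2). Under scaling by library totals, Galt at day 3 (-0.57) lost its call in whole nerve. Sord (day 7) and Galk1 (days 5 and 7) were called higher there on that scale and not with TMM. For Sord and Galk1, 5 and 4 further records carry related names.

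Among the enzymes of the tricarboxylic acid cycle and their cytosolic counterparts, none was called lower in Schwann cells. Idh1, the cytosolic isocitrate dehydrogenase that makes NADPH, was 23.7 and 28 before crush, 54.2 and 65.1 on day 3, 75.8 and 81.5 on day 5, then 52.3 and 62.3 on day 7 in Schwann cells. Counts gave log2 fold changes of 1.26 (SE 0.144) at day 3, 1.65 (SE 0.145) at day 5 and 1.19 (SE 0.145) on day 7, with adjusted p = 6.42e-05, 1.23e-05 and 0.000137. Mdh2, the mitochondrial malate dehydrogenase, was 63.7 and 69.5 before crush, 92.9 and 110 on day 3, 120 and 116 on day 5, then 108 and 106 on day 7, with log2 changes of 0.64, 0.83 and 0.70 (adjusted p = 0.000991, 0.00019 and 0.000748). Both genes had all crushed libraries above the uncrushed ones. Cs, citrate synthase, was 29.2 and 27.5 before crush, 40 and 40.8 on day 3, 38.7 and 43.8 on day 5, then 41.3 and 39.7 on day 7, with log2 changes of 0.54, 0.55 and 0.53 (adjusted p = 0.00178, 0.00152 and 0.00245). Idh2, the mitochondrial NADP-dependent form, ranged from 11.4 to 12.4 before and 15.4 to 18.3 after crush, with log2 changes of 0.42, 0.52 and 0.52 (adjusted p = 0.0227, 0.00857 and 0.00977). Ogdh, of the oxoglutarate dehydrogenase complex, was called at day 5 only (0.49, adjusted p = 0.00482), and Mdh1, the cytosolic malate dehydrogenase, at day 3 only (0.27, adjusted p = 0.0437). That call of Mdh1 was lost in 16 alternatives, among them DESeq2 (0.24, adjusted p = 0.143), the 4 libraries of the 2 groups alone (0.27, adjusted p = 0.0865) and all 16 libraries in 1 fit (0.23, adjusted p = 0.117).

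In whole nerve none of these enzymes was called higher on all 3 days, whereas on library totals Cs, Idh1, Idh2 and Mdh2 were. Cs was 32 and 31.7 before crush, 46.2 and 45.1 on day 3, 38.8 and 39 on day 5, then 36.9 and 38.3 on day 7 and was called at day 3 (0.45, SE 0.0866, adjusted p = 0.00173). Mdh2 was 94.7 and 99 before crush, 141 and 129 on day 3, 110 and 106 on day 5, then 105 and 103 on day 7 and was called at day 3 (0.41, SE 0.0841, adjusted p = 0.00244). Idh1 was 77.3 and 61.7 before crush, 89.8 and 74.5 on day 3, 111 and 91.9 on day 5, then 76.5 and 71.4 on day 7 and was called at day 5 (0.44, SE 0.133, adjusted p = 0.0258). Idh2 was called at day 3 (0.32, adjusted p = 0.0391), Ogdh was lower at day 7 (-0.42, adjusted p = 0.00319), and Mdh1 was called on no day. The share of fragments from mitochondrial genes was 14.2% to 15.6% in uncrushed and 6.24% to 8.83% in crushed whole nerve, and its part in these values was not tested. Leaving out 1 library in Schwann cells ended the call of Idh2 at day 3 (0.36 to 0.42, adjusted p = 0.0852 to 0.0994, without any 1 of uncrushed replicate 1, day 3 replicate 1 and day 3 replicate 2), Mdh1 at day 3 (0.17 to 0.32, adjusted p = 0.0544 to 0.278, without any 1 of uncrushed replicate 2, day 3 replicate 1, day 3 replicate 2, day 5 replicate 1, day 5 replicate 2, day 7 replicate 1 and day 7 replicate 2), Idh2 at day 5 (0.42, adjusted p = 0.0627, without day 5 replicate 2) and Idh2 at day 7 (0.45 to 0.46, adjusted p = 0.0502 to 0.0654, without uncrushed replicate 1 or day 7 replicate 1). In whole nerve, leaving out 1 library ended the call of Idh2 at day 3 (0.29 to 0.35, adjusted p = 0.0849 to 0.137, without any 1 of uncrushed replicate 1, uncrushed replicate 2, day 3 replicate 1 and day 3 replicate 2) and Idh1 at day 5 (0.29 to 0.31, adjusted p = 0.16 to 0.176, without uncrushed replicate 2 or day 5 replicate 1). When library totals set the scale, Ogdh at day 7 (-0.02) lost its call in whole nerve. Cs (days 5 and 7), Idh1 (days 3 and 7), Idh2 (days 5 and 7), Ogdh (days 3 and 5), Mdh1 (days 3 and 5) and Mdh2 (days 5 and 7) were called higher there on that scale and not with TMM. Counts of Ogdh were shared with other loci in 14 libraries.

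Between day 3 and day 7 members moved both ways. In Schwann cells 5 members were higher and 10 lower at day 7 than at day 3 (background 10.2% and 10.7%), with a median of -0.16 against 0.01 over all genes, and the split was 7 and 7 on library totals (background 12.9% and 7.77%) and 7 and 8 with upper quartile normalization (11.7% and 9.18%). Sord fell by 1.51 (adjusted p = 2.79e-05), Pgam1 by 0.98 (adjusted p = 0.000242), Pkm by 0.97 (adjusted p = 0.000643) and Ldha by 0.91 (adjusted p = 0.000298) on the log2 scale. Aldoc, Pfkm, Ldhb (1.01, adjusted p = 0.000321), Akr1b1 (0.70, adjusted p = 0.00137) and Tkt (0.38, adjusted p = 0.0393) were higher at day 7. In whole nerve 3 members were higher and 13 lower (background 9.85% and 11.4%), with a median of -0.25 against 0.00. The lower ones included Pdk4 (-1.49, adjusted p = 0.000314), Sord (-1.05, adjusted p = 0.000128) and Pkm (-0.93, adjusted p = 0.000322), and the higher ones were Aldoc, Pfkm (0.73, adjusted p = 0.021) and Ldhb (0.87, adjusted p = 8.21e-05). Without replicate 1 of day 3 whole nerve, 10 members were called in place of 16. Leaving out any 1 of day 3 replicate 1, day 3 replicate 2 and day 7 replicate 1 ended the call of Pfkm in whole nerve (0.48 to 0.82, adjusted p = 0.0652 to 0.155), and leaving out any 1 of 6 libraries ended that of Tkt in Schwann cells (0.28 to 0.49, adjusted p = 0.0508 to 0.245), as did DESeq2 (0.36, adjusted p = 0.0577) and the replicate block (0.38, adjusted p = 0.0574).

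Most members had a lower level in Schwann cells before crush when set against whole nerve. In uncrushed samples 4 were higher in Schwann cells and 23 lower (background 29.1% and 35.3%), or 7 and 20 on library totals (background 38.6% and 27%) and 5 and 24 without the replicate rich in muscle RNA (24.4% and 30.8%), with a median of -0.76 against -0.10 over all genes. The higher ones were Pdk4 (1.36, adjusted p = 0.000325), Aldoc (0.84, adjusted p = 0.000521), Ldha (0.81, adjusted p = 3.52e-06) and Hk2 (0.60, adjusted p = 0.00211). The lowest were Slc2a3 (-3.82, adjusted p = 1.03e-06), Akr1b1 (-2.62, adjusted p = 1.24e-10) and Pdk1 (-2.27, adjusted p = 4.44e-09). At day 3, 5 were higher and 19 lower (background 24.5% and 32.8%). At day 5, 8 were higher and 12 lower (background 23.2% and 28.4%), or 11 and 8 with upper quartile normalization (29.3% and 24.4%). At day 7, 3 were higher and 10 lower (background 22.4% and 28.7%), or 7 and 7 with that normalization (27% and 25.5%). The medians at the 3 days were -0.28, -0.03 and -0.13, against -0.11, -0.03 and -0.03 over all genes. In all 4 comparisons Aldoc and Pdk4 were higher in Schwann cells (background 11.9%), and Slc2a1, Slc2a3, Slc16a1, Mdh1, Idh2, Ldhb, Pdk1 and Pgd lower (background 18.5%). Pdk4 reached 2.30 (adjusted p = 3.11e-06) at day 7, and Mdh1 lay between -1.62 and -1.30 in the 4 comparisons. At day 7 the calls of Aldoc (0.34 to 0.44, adjusted p = 0.127 to 0.201, without Schwann cell replicate 1 or whole nerve replicate 1) and Ldhb (-0.30 to -0.27, adjusted p = 0.0699 to 0.109, without replicate 2 of either tissue) were lost without 1 library of that day, as were those of Pgd at day 3 without replicate 1 of either tissue (-0.42 and -0.30, adjusted p = 0.0607 and 0.138) and at day 5 without any 1 of Schwann cell replicate 1 and the 2 whole nerve replicates (-0.40 to -0.23, adjusted p = 0.0845 to 0.26).

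The change after crush itself differed between the tissues for 23 members on at least 1 day (background 39.7%), tested as an interaction in the fit of all 16 libraries. At day 3, 14 changed more upward in Schwann cells and 3 more downward (background 12.3% and 13.7%), at day 5 19 and 3 (background 12.6% and 14.9%), and at day 7 16 and 3 (background 11.6% and 14.4%). On library totals the splits were 12 and 6 (background 6.41% and 26.5%), 15 and 5 (7.5% and 22.7%), and 11 and 4 (6.82% and 22.5%). The median difference of the members was 0.24, 0.50 and 0.43, against -0.04, -0.04 and -0.07 over all genes. The largest at each day was that of Akr1b1, with 2.21, 2.73 and 2.81 (adjusted p = 1.04e-07, 2.3e-08 and 2.35e-08). Eno2 had 1.24, 1.32 and 1.47 (adjusted p = 0.00261, 0.00175 and 0.000871). Pdk2 had 1.53, 1.00 and 1.12 (adjusted p = 5.43e-05, 0.00176 and 0.000833). In the other direction stood Hk2, with -1.08, -1.12 and -0.74 (adjusted p = 0.00105, 0.000801 and 0.0142), and Ldha, with -0.45, -0.55 and -0.62 (adjusted p = 0.0212, 0.00597 and 0.00297). Ldhb, in contrast, had 1.13, 1.11 and 1.26 (adjusted p = 4.89e-05, 5.29e-05 and 1.98e-05). Without the uncrushed whole nerve replicate rich in muscle RNA, 13 and 3 (background 9.99% and 10.5%), 17 and 3 (9.83% and 11.8%), and 12 and 3 (8.61% and 11.5%) members were called. The call of Hk2 at day 7 was lost without day 7 replicate 2 of Schwann cells or of whole nerve (-0.54 and -0.68, adjusted p = 0.0626 and 0.0524), and that of Ldha at day 3 without any 1 of 5 libraries (-0.46 to -0.39, adjusted p = 0.0541 to 0.0944).

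Opposite calls in the 2 tissues were made for 5 members (background 6.98% of the 14030 genes tested in both tissues). At day 3, 21 members were called in both (background 30.7%), 19 with the same sign (27%) and 2, Hk2 and Akr1b1, with opposite signs (3.71%). At day 5 it was 14 (background 26.7%), of which Akr1b1, Gpi, Tpi1 and Ldhb had opposite signs (3.62%). At day 7 it was 12 (background 19%), with opposite signs for the same 4 (3.76%). The 2 sets of libraries share no samples. On library totals, Akr1b1 and Hk2 kept opposite calls, and the whole nerve calls of Gpi, Tpi1 and Ldhb were lost. Without the replicate rich in muscle RNA that of Gpi at day 7 was lost too (-0.34).

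**Figure D4:**
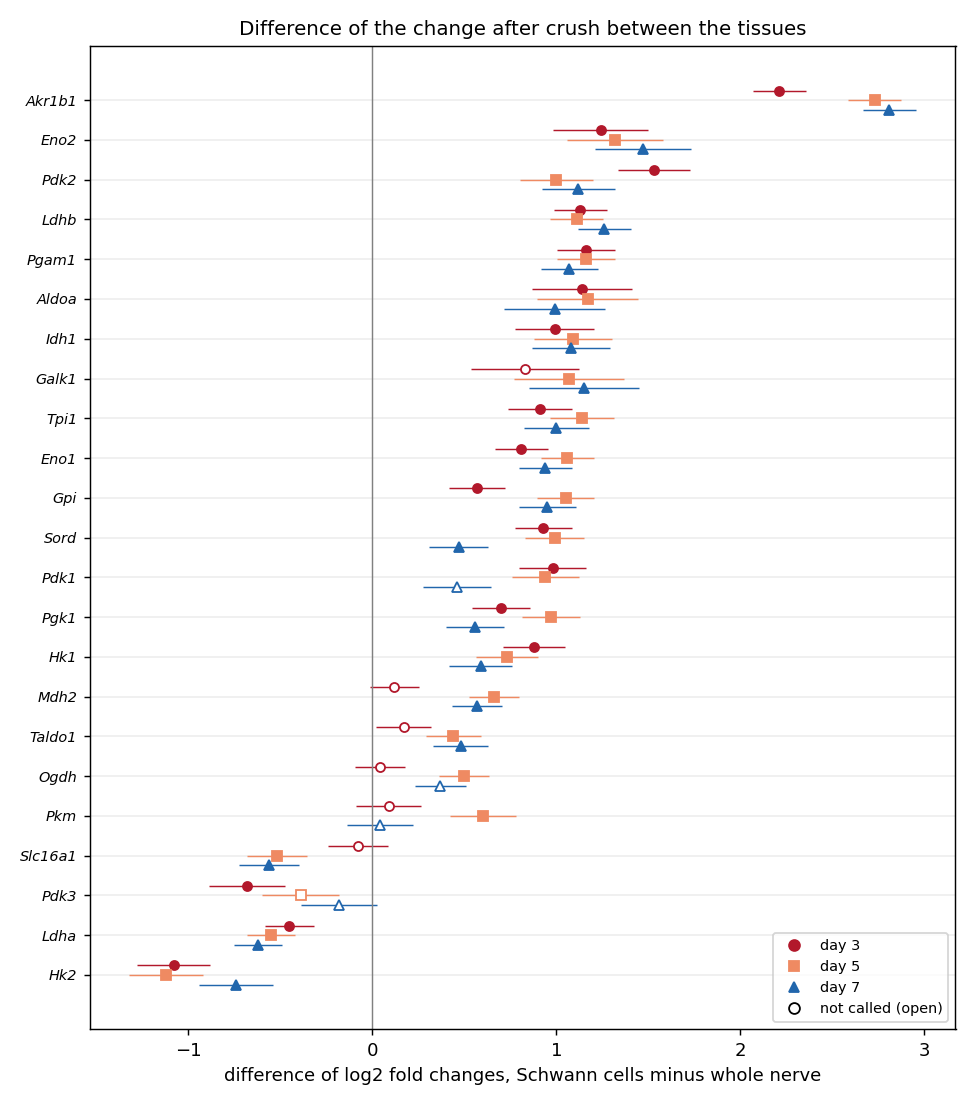
Difference between the log2 fold change after crush in Schwann cells and that in whole nerve, with its standard error, for the 23 members called on at least 1 day; filled symbols are called at an adjusted p below 0.05 and open symbols are not. Akr1b1 lies farthest to the right (2.21, 2.73 and 2.81 at days 3, 5 and 7), and Hk2 farthest to the left (-1.08, -1.12 and -0.74).

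Further genes of the same pathways, taken from 6 lists of 112 genes, were counted in the same way. At day 3 in Schwann cells 96 were tested, of which 33 were higher and 22 lower, beside 26.9% and 25.7% of all genes, with a median of 0.13 against 0.00. Of 15 tested genes of glycolysis, 6 were higher and 1 lower. The highest was Pfkfb4 (3.93, SE 0.169, adjusted p = 1.26e-07) and the lowest Pfkfb2 (-0.60, SE 0.125, adjusted p = 0.00293), both of which make or break the activator fructose 2,6-bisphosphate. In Schwann cells Pfkfb4 was 1.37 and 1.15 before crush, 16.1 and 15.1 on day 3, 10.7 and 15.8 on day 5, then 10.3 and 11.8 on day 7, and in whole nerve it changed by 2.15, 2.32 and 2.13 (adjusted p = 2.52e-05, 2.02e-05 and 5.3e-05). Of 17 genes of pyruvate and lactate, 8 were higher and 3 lower. Emb, embigin, a partner of monocarboxylate transporters, was 0.174 and 0.13 before crush, 12.1 and 14.2 on day 3, 16.2 and 15 on day 5, then 8.24 and 11.7 on day 7, a level that before crush rested on 3 and 2 rounded counts, so no fold is given. Me3, a mitochondrial malic enzyme, was the lowest of that list (-3.07, SE 0.518, adjusted p = 0.00082).

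Of 9 further genes of the pentose phosphate pathway, 2 were higher and 4 lower. Tktl1, a transketolase-like gene, was the lowest (-2.66, SE 0.557, adjusted p = 0.00293). Of 12 genes of galactose and glycogen metabolism, 4 were higher and 3 lower. Pygl, the liver glycogen phosphorylase, was the lowest (-1.33, SE 0.231, adjusted p = 0.000961). In whole nerve Pygl was higher at day 3 (0.65, adjusted p = 0.0304), a call that ended without the replicate rich in muscle RNA (0.42, adjusted p = 0.174).

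Of 20 genes of the tricarboxylic acid cycle and its shuttles, 10 were higher and 3 lower. Sdhd, a subunit of succinate dehydrogenase, was the highest (1.28, SE 0.22, adjusted p = 0.000915), and Gpd1, the cytosolic glycerol-3-phosphate dehydrogenase, the lowest (-1.39, SE 0.214, adjusted p = 0.000465), while Gpd1 was higher in whole nerve (0.74, adjusted p = 0.0146). That rise of Gpd1 was not called without the replicate rich in muscle RNA (0.58, adjusted p = 0.0896). Of 23 regulators, 3 were higher and 8 lower. Hif1a, a transcription factor that induces glycolytic genes under low oxygen, was 31.8 and 29.5 before crush, 80 and 76 on day 3, 67.8 and 67.9 on day 5, then 57.6 and 68.1 on day 7 in Schwann cells, with log2 changes of 1.38, 1.17 and 1.06 (adjusted p = 4.68e-06, 1.53e-05 and 4.05e-05). In whole nerve Hif1a changed by 0.72, 0.60 and 0.18 (adjusted p = 8.04e-05, 0.000377 and 0.151), or by 1.13, 1.00 and 0.59 on library totals (adjusted p = 3.16e-06, 9.99e-06 and 0.000522). Ppargc1b, a coactivator of mitochondrial genes, had the lowest fitted value of that list and was called, with no fold given because it had 1 and 4 rounded counts at day 3. Its levels were 0.328 and 0.381 before crush and 0.0198 and 0.0503 at day 3. In whole nerve at day 3 the 6 lists had 25 higher and 25 lower of 102 tested (background 23.1% and 22.5%), with a median of 0.00 against 0.00.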

How the data were processed

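RNA of purified Schwann cells and of whole sciatic nerve was measured in 16 libraries, grouped by the tissue, day and replicate number in the labels. The authors aligned reads to Rnor_6.0 with STAR and estimated expected counts of 31038 genes with RSEM, deposited without normalization or filter. The deposited FPKM is scaled to effective length and library, and the deposited TPM, made by the authors in the same step, was not used for tests. The submitters' processing notes also name CASAVA. A further table of the authors with modules and 8 columns of FPKM by day was left unused.

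Rounded expected counts entered edgeR 4.0.16 under R 4.3.3, with its quasi-likelihood F-test (TMM, filterByExpr, Benjamini-Hochberg adjustment at 0.05) on the 8 libraries of a tissue (14961 genes in Schwann cells and 15831 in whole nerve), or on all 16 libraries (16829 genes) for comparisons between tissues and for the interaction of tissue and injury. Standard errors were obtained from the log2 fold change and the square root of F. Levels are FPKM divided by the TMM factor of the 16-library fit, since TMM moved uncrushed whole nerve against the rest. The steps were tested on simulated data. Depth, 10555067 to 27562637 expected counts per library, limits Slc16a3 and Slc2a3 most, and the cDNA carried no molecular identifiers. A gene was named by its role in the list: all 38 members, with values in every library for the 2 largest called changes at day 3 of each role in each tissue and for members called in opposite directions. Of each further list the 2 extremes among the called genes at day 3 in Schwann cells were named. The values of Aldoa, Pfkl, Pdk2 and Cs in libraries beyond that rule, and the genes Gapdh, Myc, Eno3, Pgam2 and Pygm, were chosen after their values were seen. Members and lists were chosen with earlier results of these data known. Promoter windows are from RefSeq (GRCr8), a different assembly from that of the counts. As alternatives, DESeq2 1.42.0 (Wald test), upper quartile and RLE normalization, other filters (none, or at least 10 counts in every library), other sets of libraries, a log2 fold change of at least 1 and a replicate block were run. Summaries were made in Python 3.11.15 with pandas 2.3.3.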

Additional observations from a re-analysis of the deposited data

Results flagged for a closer look

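The change after crush differed between Schwann cells and whole nerve for 23 of the 38 genes on at least 1 day (39.7% of all 16829 genes tested), by the interaction test in the fit of all 16 libraries, which gave 58 differences in all. By day, the shares of all genes with a positive and a negative difference were 12.3% and 13.7% (day 3), 12.6% and 14.9% (day 5), then 11.6% and 14.4% (day 7). Values are the log2 fold change in Schwann cells minus that in whole nerve. For 15 genes the difference was called on all 3 days (15% of all genes). It was positive at days 3, 5 and 7 for Hk1 (0.88, 0.73 and 0.59), Gpi (0.57, 1.05 and 0.95), Aldoa (1.14, 1.17 and 0.99), Tpi1 (0.91, 1.14 and 1.00), Pgk1 (0.70, 0.97 and 0.56), Pgam1 (1.16, 1.16 and 1.07), Eno1 (0.81, 1.06 and 0.94), Eno2 (1.24, 1.32 and 1.47), Ldhb (1.13, 1.11 and 1.26), Pdk2 (1.53, 1.00 and 1.12), Akr1b1 (2.21, 2.73 and 2.81), Sord (0.93, 0.99 and 0.47) and Idh1 (0.99, 1.09 and 1.08). It was negative at the same days for Hk2 (-1.08, -1.12 and -0.74) and Ldha (-0.45, -0.55 and -0.62). For 8 genes it was called on 1 or 2 days. It was positive for Pkm (0.60 at day 5), Pdk1 (0.98 at day 3 and 0.94 at day 5), Taldo1 (0.44 at day 5 and 0.48 at day 7), Galk1 (1.07 at day 5 and 1.15 at day 7), Ogdh (0.50 at day 5) and Mdh2 (0.66 at day 5 and 0.57 at day 7). It was negative for Slc16a1 (-0.52 at day 5 and -0.56 at day 7) and Pdk3 (-0.68 at day 3). Of these 58 differences, 12 lost their call under at least 1 other setting and 16 without at least 1 library, and in these alternatives none changed sign. These counts leave out the setting that requires a log2 fold change of at least 1, which 7, 11 and 7 differences passed at the 3 days. The day 7 difference of Sord lost its call in 19 alternatives, DESeq2, RLE normalization, no filter, library totals and the replicate block among them (0.22 to 0.52, adjusted p = 0.0518 to 0.336). That of Taldo1 lost it in 13 at day 5 (0.18 to 0.48, adjusted p = 0.0508 to 0.418) and in 7 at day 7 (0.23 to 0.51, adjusted p = 0.0503 to 0.296). Hk1 (0.34 to 0.56, adjusted p = 0.0626 to 0.167) and Pgk1 (0.30 to 0.51, adjusted p = 0.0528 to 0.19) lost it in 5 each at day 7, on library totals and without any 1 of 4 libraries. Without the uncrushed whole nerve replicate rich in muscle RNA, calls ended for Gpi (0.46, adjusted p = 0.0587) and Pdk3 (-0.68, adjusted p = 0.0635) at day 3, for Pkm (0.42, adjusted p = 0.108) and Taldo1 (0.30, adjusted p = 0.176) at day 5, and for Aldoa (0.73, adjusted p = 0.0832), Pgk1 (0.51, adjusted p = 0.0642), Sord (0.52, adjusted p = 0.0606) and Taldo1 (0.32, adjusted p = 0.154) at day 7. Other calls that ended without 1 library were those of Galk1 at days 5 and 7 (0.80 to 0.92), Slc16a1 at days 5 and 7 (-0.54 to -0.39), Ogdh at day 5 (0.48), Ldha at day 3 and Hk2 at day 7. With TMM replaced by library totals, a setting chosen after seeing the data, the median difference of all genes was -0.41, -0.30 and -0.33 at the 3 days. On that scale calls ended for Gpi (0.21, adjusted p = 0.343) and Pgk1 (0.34, adjusted p = 0.132) at day 3, for Hk1 (0.47, adjusted p = 0.0533), Pkm (0.34, adjusted p = 0.191), Taldo1 (0.18, adjusted p = 0.418) and Ogdh (0.24, adjusted p = 0.216) at day 5, and for Hk1 (0.34, adjusted p = 0.167), Pgk1 (0.30, adjusted p = 0.19), Taldo1 (0.23, adjusted p = 0.296), Sord (0.22, adjusted p = 0.336) and Mdh2 (0.32, adjusted p = 0.086) at day 7. Dissociation and immunopanning of the Schwann cells and the different mixture of cells in whole nerve cannot be told apart from the tissue.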

How the results depend on the processing

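The counts of members called stayed within 1.5 times their value under DESeq2, upper quartile and RLE normalization, both filters, other sets of libraries and the replicate block. Requiring a log2 fold change of at least 1 lowered them to 13 (day 3), 11 (day 5) and 10 (day 7) in Schwann cells against uncrushed, 4 for day 7 against day 3, 10, 4, 4 and 3 in whole nerve, 16, 8, 6 and 6 between the tissues (uncrushed and days 3, 5 and 7) and 7, 11 and 7 for the differences of change. Library totals, chosen after seeing the data, raised the whole nerve counts at days 5 and 7 to 27 and 23, and in whole nerve Tkt at day 3 (0.11) and Slc16a1 at day 5 (0.05) turned sign, while Slc16a1 at day 7 came to 0.00 (adjusted p = 0.998). Without 1 library, where the lone sample left is assumed to vary like the others, whole nerve day 7 against day 3 gave 10 to 17 members, and no other count moved by over 1.5 times; Schwann cells at day 3 gave 25 to 30 and whole nerve at day 3 gave 19 to 25. Of 144 called changes of single members against uncrushed, 35 lost their call without at least 1 library and 29 under at least 1 other setting, apart from the required log2 fold change of at least 1. DESeq2 ended, among others, those of Pfkl (0.69, adjusted p = 0.0737) and Idh2 (0.39, adjusted p = 0.0886) at day 3 in Schwann cells, and in whole nerve those of Galt (-0.97, adjusted p = 0.0639) and Idh2 (0.32, adjusted p = 0.0834) at day 3 and Eno1 (0.31, adjusted p = 0.0518) at day 5. Upper quartile normalization ended, among others, those of Idh2 at day 3 in Schwann cells (0.34, adjusted p = 0.0523) and of Slc16a1 at days 5 and 7 in whole nerve (-0.34 and -0.35, adjusted p = 0.0543 and 0.0532). Between the tissues it ended, among others, the calls of Pgd at day 5 (-0.26, adjusted p = 0.126) and Ldhb at day 7 (-0.24, adjusted p = 0.0594).

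Replicate numbers share only a name: deviations of same-numbered samples correlated between -0.0576 and 0.0838. With the replicate block 30, 28 and 28 members were called in Schwann cells at the 3 days against uncrushed, 12 for day 7 against day 3, 25, 18, 15 and 18 in whole nerve, 27, 23, 20 and 13 between the tissues and 17, 22 and 18 for the differences. The block ended the calls of Slc2a1 at day 7 (-0.47, adjusted p = 0.0521), Tkt at day 5 (-0.30, adjusted p = 0.0647) and Mdh1 at day 3 (0.27, adjusted p = 0.0601) in Schwann cells. Depth limits Slc16a3, with at most 0.718 scaled FPKM in any library, and Slc2a3 in Schwann cells, with 0.11 to 0.865.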

Other observations

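Gapdh, the glycolytic dehydrogenase often used as a reference gene and not among the 38, was chosen after its values were seen. In Schwann cells it was 185 and 208 scaled FPKM before crush, 561 and 591 on day 3, 413 and 520 on day 5, then 389 and 458 on day 7, which gave log2 changes of 1.58, 1.26 and 1.12 (adjusted p = 9.38e-06, 4.57e-05 and 0.00013). In whole nerve it was 602 and 730, then 769 and 552, 439 and 451, and 385 and 391, with -0.08, -0.69 and -0.88 (adjusted p = 0.678, 0.00357 and 0.00102). On library totals these were 0.33, -0.29 and -0.47 (adjusted p = 0.063, 0.102 and 0.0158), and without the uncrushed replicate rich in muscle RNA 0.07, -0.54 and -0.73 (adjusted p = 0.755, 0.0271 and 0.00713). The difference of the changes was 1.55, 1.82 and 1.88 (adjusted p = 0.000101, 2.58e-05 and 2.17e-05), or 1.19, 1.56 and 1.63 (adjusted p = 0.000601, 6.64e-05 and 5.34e-05) on library totals.

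Myc, a transcription factor that raises many glycolytic genes, was also chosen after its values were seen. Its level in Schwann cells was 111 and 112 before crush, 14.6 and 16.8 on day 3, 20.1 and 21.1 on day 5, then 23.6 and 33.5 on day 7, which gave log2 changes of -2.80, -2.42 and -1.95 (adjusted p = 7.06e-07, 1.94e-06 and 9.83e-06). Schwann cells were dissociated and whole nerve was not. The part of that handling in the high uncrushed level and in the fall was not tested. In whole nerve Myc was 4.49 and 3.69 before and 5.81 to 12 after crush, with 1.21, 0.98 and 0.71 (adjusted p = 0.00249, 0.0107 and 0.0538). On library totals Myc was called at day 7 too (1.12, adjusted p = 0.0047), and without the replicate rich in muscle RNA its day 5 call ended (0.86, adjusted p = 0.0597).

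The muscle isoforms Eno3, Pgam2 and Pygm, chosen after their values were seen, stood in the 2 uncrushed whole nerve libraries at 4.32 and 58.4, at 3.9 and 38.2 and at 0.939 and 10.5 scaled FPKM, the second value being the replicate with 812 scaled FPKM of muscle markers. In the crushed whole nerve libraries they ranged from 1.48 to 5.38, from 0.425 to 2.97 and from 0.91 to 2.11. At day 3 the log2 fold changes in whole nerve were -3.97, -4.69 and -2.35 (adjusted p = 0.00789, 0.00385 and 0.0318). Without that library they were -1.12, -2.27 and 0.21 (adjusted p = 0.202, 0.0636 and 0.737).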
